A study of Mus musculus with 6 samples.

Results

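Toll-like receptors and their shared adaptor Myd88 were followed in the auditory nerve of young and old mice. They were taken by gene symbol, and all 10 listed genes (Tlr1, Tlr2, Tlr3, Tlr4, Tlr5, Tlr7, Tlr8, Tlr9, Tlr13 and Myd88) were present among the 17607 genes of the deposited table. The nerve had been microdissected from the cochlea of CBA/CaJ mice, an inbred strain, at 2 months (young) or 2.5 years (old) of age, with 3 mice in each group. Both cochleas of a mouse were pooled into 1 library, no other treatment or allele is named in the labels, and the labels state no sex. The transcripts of 5 of the 10 genes rose with age. They were the surface receptor Tlr2 and the endosomal receptors Tlr3, Tlr7, Tlr8 and Tlr13. None of the 10 fell.

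Toll-like receptors are membrane proteins of the innate immune system that recognise molecules typical of microbes or of damaged cells. Some sit on the cell surface and bind lipids or proteins, and others are carried to endosomes, where they bind nucleic acids taken up by the cell. All receptors listed here except Tlr3 signal through the adaptor Myd88 to kinases that activate the transcription factor NF-kappaB, whereas Tlr3 uses the adaptor Ticam1 (TRIF). In nervous tissue they are best known from microglia and macrophages, and several are also made by glia, neurons and epithelial cells.

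Values are normalised read counts, that is, reads per gene divided by a size factor of each library. The libraries held 34587979 to 40841478 reads assigned to genes. Each log2 fold change is the old mean less the young mean of log2(value + 1), given with its standard error, and adjusted p-values come from limma over the 15882 genes tested, with a threshold of 0.05. All 10 genes passed the filter on low counts and were tested. By this measure 15.9% of all tested genes were higher in old nerves and 18.7% were lower, against 5 and 0 of the 10 members. With upper-quartile scaling the shares over all genes were 21.7% and 14.7%, and the members' counts were again 5 and 0. All 3 old libraries lay above all 3 young libraries in 8 of the 10 members, against 25.5% of all tested genes. They lay below them in none, against 26.3%. All 10 markers of spiral ganglion neurons and all 10 of Schwann cells that were looked up had reads in every library, so the defining genes of the labelled tissue were present.

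**Figure D1:**
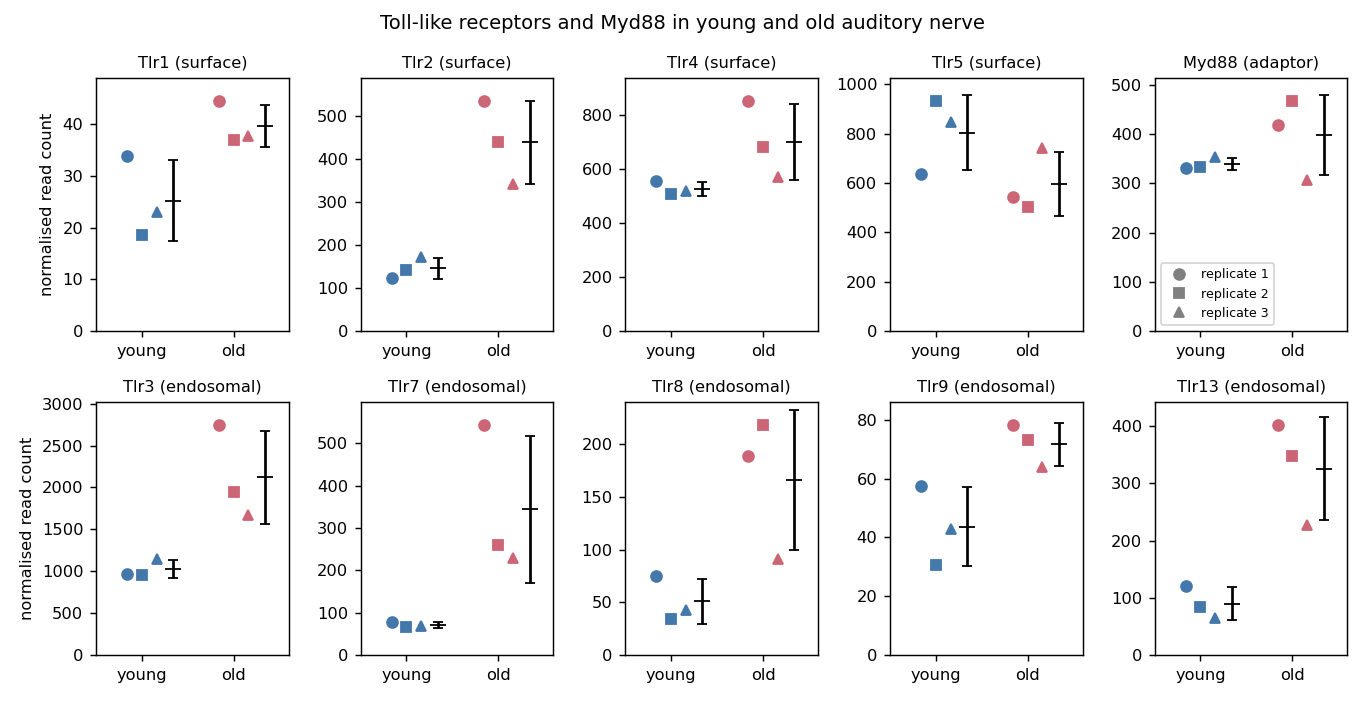
Normalised read count (y axis, linear from 0) of each gene in the 3 young and 3 old libraries, with the mean and SD beside the points. Old libraries lie above all young libraries in each panel except those of Tlr5 and Myd88.

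Among the surface receptors, Tlr2, which recognises bacterial lipoproteins together with Tlr1 or Tlr6, was the member that rose. The gene lies at chr3:83836272-83841608 in mm10, the build of all gene positions given here. Its normalised counts were 124, 142 and 173 in young 1, 2 and 3 against 534, 439 and 342 in old 1, 2 and 3. The groups did not overlap, and the lowest old library was well above the highest young one. The mean went from 146 ± 24.7 to 439 ± 95.8 (SD, n = 3 each), a 3.0-fold difference (log2 fold change 1.57 ± 0.20, adjusted p = 0.00499). This call was kept in each of the 20 alternative analyses, with log2 fold changes between 1.41 and 1.73.

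The promoter window of Tlr2, from 250 bases before to 50 bases after its RefSeq start, lies at chr3:83841559-83841858 on the minus strand of GRCm38.p6. It is shown, gene strand 5′ to 3′, because Tlr2 was the surface receptor that changed, and its capitals mark matches to a form of the kappa-B site of NF-kappaB (GGG, any 5 bases, CC) on either strand, which overlap one another.
Tlr2: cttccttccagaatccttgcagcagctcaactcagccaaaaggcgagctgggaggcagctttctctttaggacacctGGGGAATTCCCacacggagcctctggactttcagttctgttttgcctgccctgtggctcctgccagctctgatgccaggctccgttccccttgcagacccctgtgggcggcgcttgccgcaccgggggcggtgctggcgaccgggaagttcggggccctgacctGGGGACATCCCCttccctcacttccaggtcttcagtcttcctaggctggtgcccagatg
This pattern is loose, and 50.8% of the 32851 RefSeq promoter windows of this length hold it. In Tlr2 the matches formed 2 runs, beginning 173 and 9 bases before the start.

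Tlr4, the receptor for bacterial lipopolysaccharide (chr4:66827551-66846581), stood at 555, 505 and 518 in young 1, 2 and 3 and at 849, 682 and 569 in old 1, 2 and 3. The groups did not overlap, but old 3 was close to the young libraries. The difference did not pass (log2 fold change 0.39 ± 0.15, 95% interval 0.04 to 0.74, adjusted p = 0.0793). It passed without old 3 (0.53, adjusted p = 0.0180) and in DESeq2 on the recovered reads (0.42, adjusted p = 0.0450).

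Tlr5, which recognises bacterial flagellin (chr1:182954788-182976044), was the member with a negative value. It stood at 636, 930 and 847 in young 1, 2 and 3 and at 541, 502 and 742 in old 1, 2 and 3. Old 3 lay above young 1, so the groups overlapped. The log2 fold change was -0.44 ± 0.19 (95% interval -0.89 to 0.02, adjusted p = 0.118), and it passed as lower without old 3 (-0.61, adjusted p = 0.0350).

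Tlr1, the partner of Tlr2 for triacylated lipoproteins (chr5:64924680-64933558), was the scarcest member, with 19 to 36 reads in the young and 39 to 42 in the old libraries. Its normalised counts were 33.8, 18.7 and 23.1 in young 1, 2 and 3 against 44.4, 37.0 and 37.7 in old 1, 2 and 3. The old libraries were all higher, but the difference did not pass (log2 fold change 0.67 ± 0.30, adjusted p = 0.122). Of the 50-base stretches of the Tlr1 transcript 15.3% also occur in Tlr6, so some of its reads may have been assigned to either gene. Tlr6 itself, which is not among the 10 members, stood at 103, 87.5 and 90.3 in the young libraries against 144, 165 and 84.1 in the old ones and did not pass (adjusted p = 0.251).

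Of the 5 endosomal receptors among the members, 4 rose. Tlr7, a receptor for single-stranded RNA, had the largest log2 fold change of the 10 members in limma with all 6 libraries. Its normalised counts were 79.0, 65.9 and 69.4 in young 1, 2 and 3 against 543, 261 and 228 in old 1, 2 and 3. Young libraries were close together, while old 1 held more than the other two old libraries combined. The mean went from 71.4 ± 6.79 to 344 ± 173, a 4.82-fold difference (log2 fold change 2.15 ± 0.32, adjusted p = 0.00591). Without old 1 the log2 fold change was 1.76, and the call was kept in all 20 alternative analyses.

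Tlr8 is the neighbour of Tlr7 on chromosome X and also a receptor for RNA. It stood at 75.2, 34.4 and 42.9 in young 1, 2 and 3 and at 189, 218 and 90.9 in old 1, 2 and 3. The groups did not overlap, with old 3 just above young 1. The difference was 3.27-fold (log2 fold change 1.67 ± 0.41, adjusted p = 0.0205). This call was lost when single libraries were left out, as the adjusted p was then 0.0725 without young 2, 0.0670 without young 3, 0.0668 without old 1 and 0.0587 without old 2. Tlr7 lies at chrX:167304926-167330571 and Tlr8 at chrX:167241123-167264329, both on the minus strand of mm10, and the transcripts share no 50-base stretch.

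Tlr13, a receptor for bacterial ribosomal RNA that mice have and humans lack (chrX:106143275-106160493), stood at 120.3, 84.5 and 63.9 in young 1, 2 and 3. In old 1, 2 and 3 it stood at 402, 348 and 227. Every old library was well above every young one. The mean went from 89.6 ± 28.6 to 326 ± 89.4, a 3.64-fold difference (log2 fold change 1.86 ± 0.29, adjusted p = 0.00657), and the call was kept in all 20 alternative analyses.

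Tlr3, the receptor for double-stranded RNA (chr8:45395665-45410539), was the most abundant receptor per kilobase of transcript. Its normalised counts were 966, 953 and 1151 in young 1, 2 and 3 against 2744, 1949.98 and 1665 in old 1, 2 and 3. The groups did not overlap, and the old libraries were spread more widely than the young ones. The mean went from 1023 ± 111 to 2119.9 ± 559, a 2.07-fold difference (log2 fold change 1.02 ± 0.18, adjusted p = 0.00805). The adjusted p was 0.0532 without both young 1 and old 2, with the log2 fold change at 1.03. Of the 50-base stretches of the Tlr3 transcript 1.56% occur in Gm45542, a gene on the opposite strand that is not analysed here.

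Tlr9, a receptor for DNA with unmethylated CpG (chr9:106222598-106226876), was the endosomal member that did not pass. It stood at 57.4, 30.5 and 42.9 in young 1, 2 and 3 and at 78.2, 73.1 and 63.8 in old 1, 2 and 3. The old libraries were all higher by a small margin (log2 fold change 0.75 ± 0.28, 95% interval 0.10 to 1.39, adjusted p = 0.0735). Without young 1 the value was 0.96 and passed (adjusted p = 0.0485).

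Of the endosomal receptors that rose, Tlr7 had no entry in the promoter table. The windows of the others are shown in the same way for Tlr3 (chr8:45410331-45410630, minus strand), Tlr8 (chrX:167264280-167264579, minus strand) and Tlr13 (chrX:106143025-106143324, plus strand), so that what they share and do not share can be seen. Capitals mark the kappa-B form in Tlr3 and, in Tlr8 and Tlr13, GAGGAA, the core of the site of PU.1, a transcription factor of the myeloid lineage, on either strand.
Tlr3: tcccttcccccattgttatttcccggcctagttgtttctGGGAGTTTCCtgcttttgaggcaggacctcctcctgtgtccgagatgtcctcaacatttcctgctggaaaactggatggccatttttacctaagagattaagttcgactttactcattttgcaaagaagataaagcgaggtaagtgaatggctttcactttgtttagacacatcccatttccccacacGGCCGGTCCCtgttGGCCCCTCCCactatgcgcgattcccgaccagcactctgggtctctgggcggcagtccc
Tlr8: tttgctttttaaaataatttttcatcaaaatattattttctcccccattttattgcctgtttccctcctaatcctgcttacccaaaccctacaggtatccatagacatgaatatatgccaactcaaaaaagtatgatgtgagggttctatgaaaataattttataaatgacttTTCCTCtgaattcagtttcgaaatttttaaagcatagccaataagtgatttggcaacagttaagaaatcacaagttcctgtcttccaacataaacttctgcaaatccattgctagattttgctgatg
Tlr13: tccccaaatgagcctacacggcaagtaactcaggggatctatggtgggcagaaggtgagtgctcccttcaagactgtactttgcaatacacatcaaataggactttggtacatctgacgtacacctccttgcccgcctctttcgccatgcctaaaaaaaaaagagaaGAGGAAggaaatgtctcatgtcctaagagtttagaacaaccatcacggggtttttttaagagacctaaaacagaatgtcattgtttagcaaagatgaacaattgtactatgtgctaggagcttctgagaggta
The GAGGAA core lay 83 bases before the start in Tlr13 and, on the other strand, 77 bases before it in Tlr8. It occurred in 28.3% of all windows. No motif of those searched was common to these 3 windows. Of the 10 members 8 matched the RefSeq promoter table, with 9 windows, and Tlr4 and Tlr7 did not. GAGGAA was in those of Tlr8, Tlr9 and Tlr13, and the kappa-B form in those of Tlr2, Tlr3 and Tlr5. For Tlr1, GAGGAA was in the window at chr5:64933509-64933808 and not in the window at chr5:64932650-64932949. A form of the interferon-stimulated response element (GAAA, any 2 bases, GAAA), found in 3.44% of all windows, was in that of Myd88. The matches are letters in a window and not measured binding sites.

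Myd88, the adaptor that most of these receptors share (chr9:119335988-119340040), did not pass. It stood at 331, 332 and 352 in young 1, 2 and 3 and at 418, 466 and 308 in old 1, 2 and 3. Old 3 was below all young libraries and the other old libraries were above them (log2 fold change 0.21 ± 0.16, 95% interval -0.18 to 0.59, adjusted p = 0.352). Without old 3 it passed (0.38, adjusted p = 0.0389). Of its 50-base stretches 9.16% are shared with Acaa1a, which overlaps it on the opposite strand, and no label states whether reads were counted by strand.

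**Figure D2:**
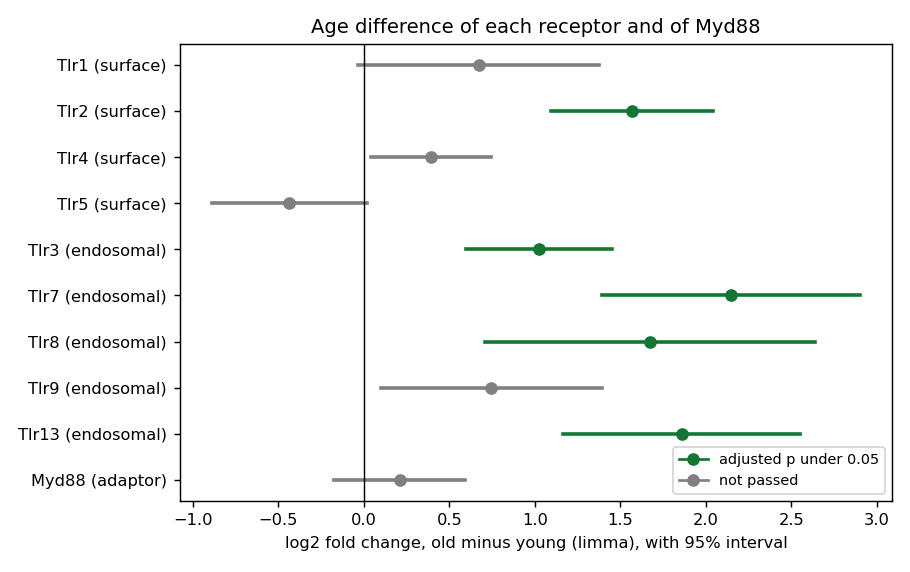
Log2 fold change (x axis, old minus young, limma) of each member with its 95% interval, with surface receptors at the top, endosomal receptors below them and Myd88 at the bottom. The values of the genes that passed run from 1.02 in Tlr3 to 2.15 in Tlr7, and the interval of Tlr4 (0.04 to 0.74) lies below that of Tlr2 (1.09 to 2.04).

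The surface and endosomal receptors among the members were then set side by side, so Tlr6, Tlr11 and Tlr12 were in neither class. Of 4 surface receptors 1 rose (median log2 fold change 0.53). Of 5 endosomal receptors 4 rose (median 1.67), and the median over all tested genes was -0.00. The surface count was 2 without old 3 and 2 in DESeq2. The endosomal count ranged from 3 to 5 as single libraries were left out. In each library the mean log2 count of the endosomal receptors less that of the surface receptors was taken. This gap was -0.57, -1.07 and -1.05 in young 1, 2 and 3 against 0.26, 0.17 and -0.31 in old 1, 2 and 3. Every old library was thus shifted towards the endosomal class, although old 3 kept a negative gap. The mean gap went from -0.90 ± 0.28 to 0.04 ± 0.31 (SD, n = 3 each), a shift of 0.94 that ranged from 0.83 to 1.24 over the 10 alternatives computed for it. It carries no p-value, because the members were chosen with results of these data known. The classes were not uniform, since the endosomal receptor Tlr9 did not pass and the surface class holds 1 that rose 3.0-fold (Tlr2).

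To compare levels between genes, the counts were divided by the kilobases of each gene's longest protein-coding transcript. In young nerves the order of the mean level per kilobase was Tlr3 (232 ± 25.1), Tlr5 (211 ± 39.7), Myd88 (173 ± 6.13), Tlr4 (129 ± 6.32), Tlr2 (48.5 ± 8.20), Tlr13 (22.1 ± 7.04), Tlr7 (18.3 ± 1.74), Tlr8 (14.8 ± 6.27), Tlr9 (12.5 ± 3.87) and Tlr1 (8.34 ± 2.58). Myd88 and Tlr4, Tlr4 and Tlr2, and Tlr2 and Tlr13 did not overlap in any library, and the other neighbours in this order overlapped. In old nerves Tlr3 (481 ± 127) stood alone at the top. Myd88 (203 ± 41.4), Tlr4 (172 ± 34.6), Tlr5 (156 ± 33.7), Tlr2 (145 ± 31.8), Tlr7 (88.3 ± 44.5), Tlr13 (80.2 ± 22.0) and Tlr8 (48.4 ± 19.5) formed a chain in which each overlapped the next. Tlr9 (20.6 ± 2.10) and Tlr1 (13.1 ± 1.35) lay below them and apart from each other.

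The levels per kilobase of the 9 receptors were also summed. The sum of the endosomal receptors was 307, 273 and 320 in young 1, 2 and 3 against 939, 680 and 537 in old 1, 2 and 3. These groups did not overlap, and the mean was 2.40-fold higher in old nerves. The sum of the surface receptors was 355, 421 and 414 in the young libraries against 542, 457 and 460 in the old ones, 1.23-fold higher in the mean. These groups did not overlap either, although the gap between them was narrower. Surface receptors made up 53.6%, 60.7% and 56.4% of the sum of all 9 in young 1, 2 and 3 against 36.6%, 40.2% and 46.1% in old 1, 2 and 3. Tlr5 alone went from 30.2% ± 4.99 of the sum to 13.5% ± 5.24, and Tlr3 from 33.3% ± 2.21 to 39.6% ± 2.17. The 4 other endosomal receptors went from 9.82% ± 3.05 to 19.4% ± 2.97. These shares add to a whole, so that of Tlr5 depends on the other receptors as well.

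**Figure D3:**
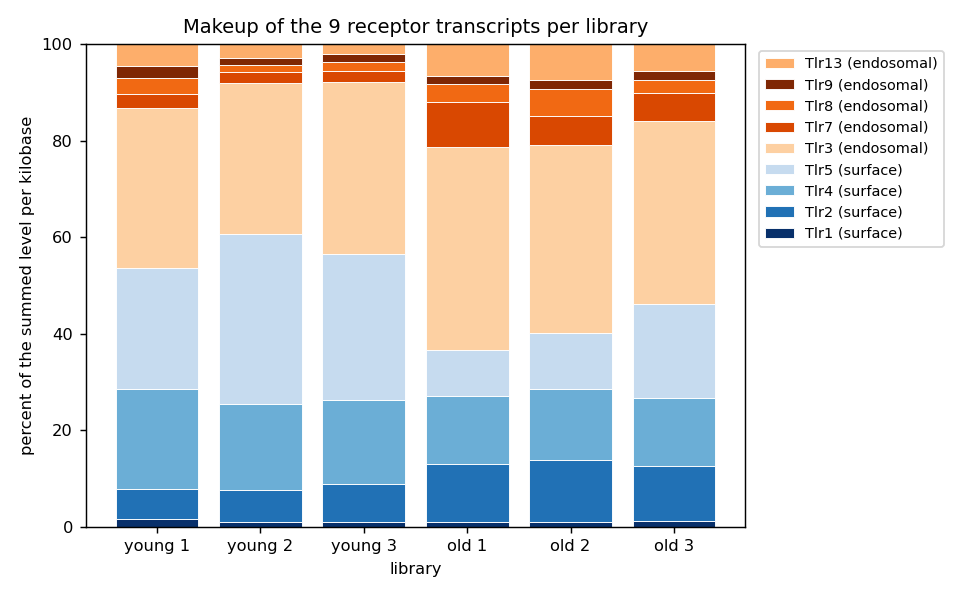
Share of each receptor (y axis, percent) in the summed level per kilobase of the 9 receptor transcripts in each of the 6 libraries, with surface receptors in blue and endosomal ones in orange. The blue part covers 53.6% to 60.7% in young and 36.6% to 46.1% in old libraries.

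The old libraries differed among themselves in a common order for most members. Old 1 was the highest old library in 7 of the 10 genes, and old 3 was the lowest in 8. Against the mean of the young libraries, Tlr7 was higher by 2.91, 1.86 and 1.67 on the log2 scale in old 1, 2 and 3. For Tlr13 the values were 2.20, 1.99 and 1.38, and for Tlr2 they were 1.87, 1.59 and 1.24. Old 1 also stood apart in Irf7, an interferon-induced transcription factor that acts below Tlr7 and Tlr9. Irf7 was at 2016 in old 1, at 375 and 264 in old 2 and old 3, and between 229 and 440.4 in young libraries (adjusted p = 0.324). The part of old 1 in the rise of Tlr7 was not tested. The log2 fold change of Tlr7 without old 1 is given above.

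Most markers of macrophages rose as well. Of 20 markers 16 rose and none fell, at a median log2 fold change of 1.35. Over all tested genes 15.9% were higher and 18.7% lower, which is to be set beside each count of markers here. The 4 that did not pass were Fcgr1 (0.59), Mrc1 (0.35), Cx3cr1 (0.35) and Lyve1 (1.07). The summed normalised count of all 20 was 8305 to 11707 in young and 19830.4 to 32429 in old libraries. None of the 20 was at 0 in any library. Among the old libraries the sum was lowest in old 3, as most members were. It was highest in old 2 (32429, against 29644 in old 1), whereas old 1 was the highest old library in 7 of the 10 members. Cd68, a lysosomal protein of phagocytes, rose from 223 ± 40.2 to 1035 ± 243 and Csf1r, the receptor that macrophages need for survival, from 2086 ± 236 to 3051 ± 427. In bulk tissue more cells of a type and more RNA per cell cannot be told apart, and the part of macrophage number in the receptors' rises was not tested. Markers of plasmacytoid dendritic cells, which are rich in Tlr7 and Tlr9, summed to 652 to 871 in young and 1005 to 2756 in old libraries. Most of this sum was Bst2, an interferon-induced gene that is not specific to these cells and did not pass (adjusted p = 0.0653). It was at 385, 549 and 384 in the young libraries against 2341, 965 and 563 in the old ones. Of the 5 tested, Siglech (0.59) and Lag3 (0.75) rose. Ccr9 (0.34, adjusted p = 0.550) and Spib (-0.48, adjusted p = 0.570) did not pass, and Klk1 was below the filter. No rise was left without any 1 of the young libraries or old 1, and 1 was left without old 2 or old 3. Neutrophil markers summed to 418 to 3072 in young and 708 to 3389 in old libraries. Of the 13 tested, Csf3r (1.30) and Padi4 (1.47) rose, a number near the 15.9% over all tested genes. Values were positive in 10 and negative in 3, namely Elane (-1.34), Camp (-0.49) and Mpo (-0.23), which did not pass. The count of rises was 1 without young 2, old 1 or old 2. It was 3 without young 1, and 8 when young 1 and old 2 were left out together. Young 1 had the highest sum of the young libraries (3072) and old 2 the lowest of the old ones (708). Leaving out this pair sets the groups apart by the choice of libraries, so no conclusion is drawn from the 8. Sums of B cell markers (64.9 to 108 in young, 53.9 to 117 in old) and of T and NK cell markers (39.3 to 63.0 and 50.3 to 96.8) were low, and Ms4a1, Cd3g and Ncr1 were at 0 in some library, as was the neutrophil marker Ly6g.

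The co-receptors and cell-surface helpers had 2 rises and no fall among 7 tested genes, with a median log2 fold change of 0.57. Beside this, 15.9% of all tested genes were higher and 18.7% lower. Cd14, which hands lipopolysaccharide to Tlr4, stood at 201, 212 and 226 in young 1, 2 and 3 and at 422, 642 and 385 in old 1, 2 and 3. The groups were well apart (log2 fold change 1.14 ± 0.20, adjusted p = 0.00783). Ly86 (MD-1), the partner of the Tlr4-like protein Cd180, rose from 128 ± 16.3 to 376 ± 56.8 (1.55 ± 0.17, adjusted p = 0.00427). Cd180 (0.85, adjusted p = 0.0866) and Cnpy4 (0.20, adjusted p = 0.240) did not pass, nor did Ly96 (MD-2), which Tlr4 needs to bind its ligand (0.20, adjusted p = 0.606). The count was 4 without old 3.

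Genes that carry receptors to endosomes or cut them there rose in 6 of 10 cases, and none fell (median log2 fold change 0.34). Over all tested genes 15.9% were higher and 18.7% lower. Ctss (cathepsin S), a protease of endosomes in phagocytes, rose from 734 ± 119 to 3162 ± 679 (2.09 ± 0.18, adjusted p = 0.00399). Ctsl (cathepsin L, 0.57 ± 0.10), Ctsb (cathepsin B, 0.33 ± 0.09) and Cnpy3, a chaperone of several receptors (0.30 ± 0.08), rose too. The other rises were of Unc93b1, the escort of nucleic acid receptors to endosomes, from 670.1 ± 100.2 to 1041 ± 230.4 (0.62 ± 0.18, adjusted p = 0.0336), and of the endolysosomal transporter gene Slc15a3 (0.99 ± 0.29, adjusted p = 0.0371). The count was 3 without young 1 and 2 without any other single library except old 3, without which it was 7. At an adjusted p under 0.01 in limma it was 2.

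Adaptors, kinases and ubiquitin enzymes below the receptors moved in both directions, with 3 rises and 3 falls among 23 tested and a median log2 fold change of 0.01. Neither count exceeds the share over all tested genes, 15.9% higher and 18.7% lower. Irak2, a kinase of the Myd88 complex, stood at 595, 582 and 577 in young 1, 2 and 3 and at 1062, 956 and 822 in old 1, 2 and 3 (0.69 ± 0.11, adjusted p = 0.00657). Ticam1, the adaptor of Tlr3, rose by a log2 fold change of 0.36 ± 0.10 and the ubiquitin ligase gene Traf6 by 0.27. Traf3, a ubiquitin ligase of the branch that leads to interferon, fell from 3473 ± 183 to 2240.2 ± 377 (-0.64 ± 0.12, adjusted p = 0.00918). The ubiquitin-conjugating enzyme gene Ube2n (-0.33 ± 0.08) and its partner Ube2v1 (-0.37) fell as well. The count was 1 higher and 1 lower without any single library other than old 3, and 5 higher and 3 lower without old 3. With length and GC trends removed it was 5 higher and 2 lower.

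Negative regulators had 6 rises and 4 falls among 17 tested, with a median log2 fold change of 0.24, beside 15.9% higher and 18.7% lower over all tested genes. Nfkbia, the inhibitor of NF-kappaB that NF-kappaB itself induces, stood at 1035, 1282 and 1101 in young 1, 2 and 3 and at 3554, 2983 and 3799 in old 1, 2 and 3. It differed 3.02-fold, with old libraries close together (1.59 ± 0.12, adjusted p = 0.00399). The inhibitory receptor gene Lilrb4a rose by 1.53 ± 0.25 and Inpp5d, a lipid phosphatase of blood cells, by 0.63 ± 0.11. The other rises were of Cd300lf (1.94), Irak3 (0.65), which blocks the kinase complex of Myd88 and is made mainly by myeloid cells, and Nfkbib (0.27). Sarm1, a member of the same adaptor family as Myd88 that is best known as an enzyme of axon degeneration in neurons, fell from 1449 ± 24.1 to 622 ± 160 (-1.25 ± 0.18, adjusted p = 0.00552). Tnfaip3 (A20, -0.53), Tnip1 (-0.44) and Tollip (-0.32) were the other falls. The count of rises was 3 without young 2, young 3 or old 1, and that of falls was 2 without young 2. Beside Sarm1, of 10 markers of spiral ganglion neurons 4 fell and none rose (2 fell without young 2 or young 3, and 0 without both young 1 and old 2), and their summed count was 450914 to 465031 in young and 294330 to 418182 in old libraries. The part of neuronal markers in the value of Sarm1 was not tested.

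Among 14 transcription factors of the pathway 3 rose and none fell (median log2 fold change 0.28), where 15.9% of all tested genes rose, so the number of rises is near that of genes at large. Irf5, a factor that Myd88 activates in macrophages, stood at 96.8, 79.6 and 84.8 in young 1, 2 and 3 and at 165, 232 and 163 in old 1, 2 and 3 (1.08 ± 0.19, adjusted p = 0.00832). Atf3, from 277 ± 37.8 to 573 ± 172, and Nfkbiz (0.49 ± 0.14), both induced by receptor signalling, rose too. The NF-kappaB subunit genes did not pass, with values of -0.21 for Nfkb1, -0.09 for Nfkb2, -0.16 for Rela, 0.26 for Relb and -0.32 for Rel. The count was 1 without young 1, young 3, old 1 or old 2.

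Products that receptor signalling induces were scarce. Of 20 listed, 16 were among the deposited genes and 9 passed the filter on low counts. Of these 9, 2 rose and none fell (median log2 fold change 0.68 over the 9). That number too is near the 15.9% of all tested genes that rose. Cd86, a costimulatory protein of antigen-presenting cells, went from 38.8 ± 5.98 to 99.9 ± 27.8 (1.31 ± 0.28, adjusted p = 0.0126). The chemokine gene Ccl5 went from 13.3 ± 6.02 to 40.2 ± 18.2 (1.54 ± 0.48, adjusted p = 0.0429). Il1b was at 11.01 to 15.04 in young and 14.5 to 28.5 in old libraries (adjusted p = 0.210), and Ccl2 had a log2 fold change of 2.15 with an adjusted p of 0.0600. Tnf, with 2.20 to 5.90 in young and 3.17 to 16.1 in old libraries, was below the filter. The count was 1 without young 2, old 1 or old 2, 3 without old 3, and 1 with length and GC trends removed.

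**Figure D4:**
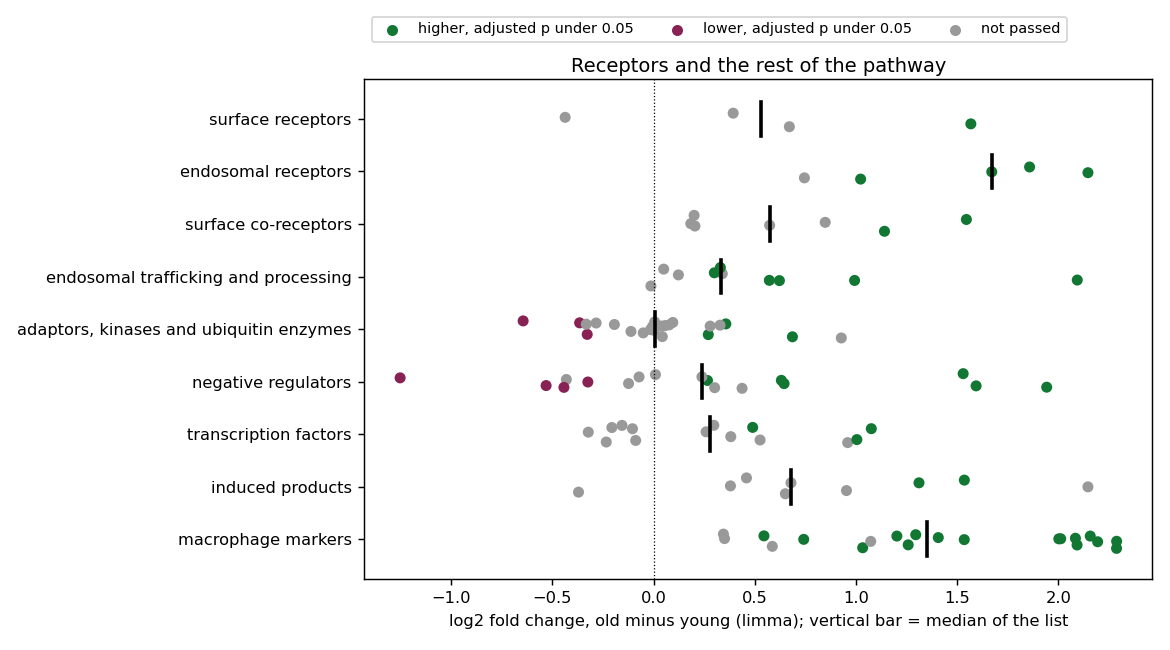
Log2 fold change (x axis, old minus young, limma) of every tested gene of each list, coloured by whether it passed, with the median as a vertical bar. The endosomal receptors (median 1.67) and the macrophage markers (1.35) lie farthest to the right, and the adaptors, kinases and ubiquitin enzymes centre on 0.01.

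Finally, the genes most like Tlr5 and Tlr3, the surface and the endosomal receptor with the highest mean count over the 6 libraries, were sought among 14092 genes with a mean of at least 50, by Pearson correlation of log2 counts over the 6 libraries. In old nerves alone Tlr4 had a higher mean than Tlr5. The correlations mix the age difference with the spread inside the groups, are the highest of many, and are given as a description. For Tlr3 the 5 closest were Cd44 (r = 0.999), Grb7 (0.998), Rer1 (0.997), Tmed4 (0.997) and Rab19 (0.996). Cd44, a cell-surface receptor for hyaluronan, had a mean of 1113 in young and 2320.4 in old nerves, close to the fold of Tlr3. For Tlr5 they were Gtpbp1 (0.999), Cnr1 (0.997), Mafa (0.997), 4921504A21Rik (0.995) and Grm7 (0.992). Cnr1, a cannabinoid receptor, and Grm7, a metabotropic glutamate receptor, are known from neurons, with means of 2599.6 and 1732 in young and 2060.2 and 1371 in old nerves. Which cells hold the Tlr5 transcript was not tested.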

How the data were processed

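RNA from the auditory nerves of 6 mice was sequenced, as 1 library per mouse. Per the submitters' processing notes, the authors used TopHat2, Partek and DESeq2 with mm10. Tool versions, annotation and strand settings were not given in the sources used here. Deposited sample columns are a signal, each gene's reads divided by 1 size factor per library. Whole reads were recovered within a tolerance of 0.1 for 99.92% to 99.97% of values above 0. The p-values in the table were computed by the authors, and its deposited fold change is a signed score.

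The main test was limma (3.58.1) with trended variances on log2(value + 1). It was two-sided, and Benjamini-Hochberg adjustment was used. Genes passed edgeR's filterByExpr (minimum count 10, minimum total 15) on recovered reads. edgeR (4.0.16) and DESeq2 (1.42.0) on recovered reads were alternatives, beside other scalings, filters, pseudocounts and thresholds, a replicate block, left-out libraries, and removal of length and GC trends (mgcv 1.9.3). With 3 mice against 3, an exact permutation test cannot go below p = 0.1. The steps were tested on simulated counts. No pair of replicates was alike within counting noise, at 18.5 to 63.6 for chi-square over its degrees of freedom. Transcript lengths came from GENCODE M21 and promoters from RefSeq (GRCm38.p6). Positions are counted from 1 (the deposited stop is 1 past the last base).

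All members were named, and of each pathway list up to 4 genes with the smallest p, plus those that make up a count of 5 or fewer. Any other list gene was picked with its values in view. The members and lists were chosen with earlier results of these data known.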

Additional observations from a re-analysis of the deposited data

How the results depend on the processing

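No member changed sign under any of the 20 alternatives, TMM and upper-quartile scaling included. The adjusted p under 0.01, the 1.5-fold minimum and the replicate block keep the log2 fold changes of the main fit, so no sign could change there. Calls of Tlr2, Tlr7 and Tlr13 were kept in all 20 alternatives. Tlr8 lost its call without young 2, young 3, old 1 or old 2 and at an adjusted p under 0.01, and Tlr3 lost its call without both young 1 and old 2. The cause was not tested. The number of members higher was 5 in edgeR and 5 with length and GC trends removed, 6 in DESeq2, and 4 to 7 with 1 library left out. The number lower was 0 to 1 with 1 library left out, where the 1 was Tlr5 without old 3. The surface count was 2 in DESeq2 and 1 to 2 with 1 library left out. Of the 82 tested genes in the pathway lists 22 were higher and 7 lower, beside 15.9% higher and 18.7% lower over all tested genes. With 1 library left out these counts were 10 to 30 and 3 to 6, with the replicate block 12 and 3, without both young 1 and old 2 they were 8 and 2, and at an adjusted p under 0.01 they were 9 and 2. With a 1.5-fold minimum 2 were lower. Of all 15882 tested genes 2524 were higher and 2969 lower. With 1 library left out these were 1159 to 2757 and 1430 to 3360, with the replicate block 1078 and 1633, without both young 1 and old 2 they were 831 and 945, at an adjusted p under 0.01 they were 763 and 1103, and with a 1.5-fold minimum 1152 and 1327. Upper-quartile scaling gave 3439 higher and 2338 lower and shifted the median of all genes by 0.08. The replicate numbers did not pair the libraries. Same-numbered libraries had correlations of deviations of -0.29, -0.41 and -0.05, and 0 of 6 libraries correlated best with their own number. The block kept 5 members higher. Tlr1 has no value with a mean of at least 50, which it does not reach.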

Other observations

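Outside the receptors, Itgax, the integrin gene of CD11c, which is used as a marker of dendritic cells and is also made by activated macrophages and microglia, had the largest difference among the marker genes that were looked up. It was singled out after its values were seen. Its normalised counts were 19.7, 8.85 and 3.30 in the young libraries against 258, 394 and 242 in the old ones (log2 fold change 4.93 ± 0.55, adjusted p = 0.00445 in limma). The other markers of conventional dendritic cells that were tested did not pass in limma with all 6 libraries. The number lower was 0 there and ranged from 0 to 1 over the 20 alternatives. Flt3 had a log2 fold change of -0.46, Zbtb46 one of -0.09, Clec9a one of 0.10 and Cd209a one of 0.44. In Flt3 all old libraries lay below all young ones (adjusted p = 0.0677 in limma). Xcr1 and Ccr7 were below the filter, and Xcr1 was at 0 in some library. The chemokine gene Cxcl10, which interferon induces, stood at 333 in old 1, 45.5 in old 2 and 6.77 in old 3, against 15.7 to 33.0 in young libraries, and had an adjusted p of 0.567.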
